A study of Mus musculus with 15 samples.

Results

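The SR family of splicing factors was followed in naive and primed mouse CD8+ T cells through 10 of the 55536 annotated genes listed in the deposited counts. These are Srsf1, Srsf2, Srsf3, Srsf4, Srsf5, Srsf6, Srsf7, Srsf9, Srsf10 and Srsf11. They were chosen by name, and the rule used no measured value, though earlier results of these data were known. The 10 genes carry 85 annotated transcripts, beside 141862 annotated transcripts listed in the deposited counts for all genes. Of these, 29 are annotated as protein coding, 15 as targets of nonsense-mediated decay (NMD), 26 as retaining an intron and 15 as processed transcripts. The annotation holds 1 other Srsf gene, Srsf12, which was counted with the SR-related genes. Here "productive" means annotated as protein coding and "unproductive" means any other type.

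RNA was sequenced from CD8+ T cells of spleen and lymph nodes in 15 libraries, 5 per group. All cells carried the OT-I transgenic T cell receptor, which recognises an ovalbumin peptide, on a C57BL/6J background, and per the study's methods the OT-I donors were Rag-deficient. Naive cells came from OT-I mice without transfer. Ag cells were OT-I cells transferred into wild-type C57BL/6J recipients that received the SIINFEKL peptide with a rat IgG control. Ag+Costim recipients received peptide with agonist antibodies to the costimulatory receptors CD134 (OX40) and CD137 (4-1BB). Transferred cells were collected at day 4 per the labels, and slightly earlier per the methods, and sorted on CD8, a congenic marker and the receptor chains. The Naive group therefore differs from the other groups in transfer and host as well as in antigen, and these cannot be told apart. Replicates 1, 2 and 5 of each group were recorded as female and replicates 3 and 4 as male, and the labels give no ages. Per the study, each library is an individual biological replicate.

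SR proteins carry RNA recognition motifs and a domain rich in arginine and serine. They bind exons, recruit the spliceosome to nearby splice sites, and several also accompany the mRNA to the cytoplasm. Their own transcripts are a textbook case of splicing coupled to decay. Inclusion of a poison exon, retention of an intron or splicing within the 3' untranslated region gives a transcript that ends translation early or ends it upstream of a splice junction, so that it is degraded or kept in the nucleus, and high SR protein levels favour that form.

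The annotated stop codons place some NMD transcripts of the family in such exons. The sequences below run from the first base of the stop-bearing exon to its stop codon on the gene's own strand, and are shown because the annotation places the stop codon of an NMD transcript in them. They come from the GENCODE M21 transcripts on GRCm38, and capitals mark the stop codon. The exon of Srsf3-201 is exon 4 of 7, chr17:29039454-29039909 on the plus strand, 456 bases long. That of Srsf7-203 is exon 4 of 9, chr17:80204622-80205081 on the minus strand, 460 bases long. That of Srsf11-206 is exon 4 of 9, chr3:158024123-158024231 on the minus strand, 109 bases long, and that of Srsf6-201 is exon 3 of 7, chr2:162932815-162933082 on the plus strand, 268 bases long.
Srsf3-201: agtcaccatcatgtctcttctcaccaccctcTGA
Srsf7-203: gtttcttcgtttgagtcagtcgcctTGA
Srsf11-206: ttcttttccctggttcagccTGA
Srsf6-201: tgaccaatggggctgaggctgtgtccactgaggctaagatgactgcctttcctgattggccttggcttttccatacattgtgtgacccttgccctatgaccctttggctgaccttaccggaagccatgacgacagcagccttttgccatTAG
In Srsf3, Srsf7 and Srsf11 the stop lay 34, 28 and 23 bases into an exon that no protein-coding transcript of the gene contains, counting the stop codon. The exon of Srsf6-201 shared 61.6% of its bases with coding transcripts. Srsf1 and Srsf2 differed from these. Their stop-bearing exons lay wholly within coding transcripts, and each NMD form has at least 1 annotated splice junction downstream of the stop. The stretches below are exon 3 of Srsf1-204, chr11:88049977-88050095 on the plus strand, and exon 1 of Srsf2-204, chr11:116852021-116852086 on the minus strand.
Srsf1-204: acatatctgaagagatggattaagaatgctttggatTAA
Srsf2-204: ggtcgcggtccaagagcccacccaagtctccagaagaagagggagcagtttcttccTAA
The leading unproductive transcripts of Srsf2, Srsf5 and Srsf6 each kept 1 whole intron, of 1059, 1229 and 1283 bases. Srsf10 has no transcript annotated as an NMD target or as retaining an intron, and its unproductive class is made of 6 processed transcripts.

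The libraries held between 4865952 and 25280667 counts (median 14967616). All 5 CD8 T cell markers fixed for the check (Cd8a, Cd8b1, Cd3e, Cd3d, Trac) were detected in every library, with summed levels from 3207 to 6882 CPM, that is, relative to each library's total count. The 6 B cell markers summed to 578 to 1033 CPM in Naive, against 568 to 1610.1 in Ag and 510.0 to 786 in the Ag+Costim group, the 5 myeloid markers to 9.40 to 159, 40.5 to 96.6 and 57.0 to 122, and the 4 erythroid markers to 30.1 to 81.1, 6.89 to 666 and 2.33 to 19.7. The CD4 T cell markers stayed at or below 22.4 CPM and the NK cell markers at or below 43.6. No marker was at 0 in a whole group, and the part of other cells in the results below was not tested. The library Ag 3 had the lowest total count, and Naive 5 lay away from the other Naive libraries in many of the values below. The Naive group and the libraries Ag+Costim 4 and 5 shared lane 3, while lane 2 held every other library. Ag and Naive shared no lane, and a lane term in the model is estimated through Ag+Costim alone. The library kit does not mark strand. Srsf2 is overlapped on the opposite strand by Mettl23 along its whole length and by Mfsd11 over 655 bases, and reads from these genes and Srsf2 cannot be told apart without strand.

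At the gene level, some of the 10 genes were called between Naive and Ag+Costim cells, in total a share near that of all genes. Srsf3, Srsf4, Srsf6 and Srsf10 rose and Srsf5 fell, while Srsf1, Srsf2, Srsf7, Srsf9 and Srsf11 did not pass the test (edgeR quasi-likelihood, Benjamini-Hochberg FDR under 0.05). These 5 calls among 10 genes stand beside 44.7% of the 17366 genes tested, and the 4 higher and 1 lower beside 21% called higher and 23.6% called lower. The median log2 fold change of the 10 genes was 0.52, against -0.08 over all genes tested. In these bulk libraries, fewer cells of a type and less RNA per cell cannot be told apart. Values below are given for replicates 1 to 5 in order, and a log2 fold change comes from the fit with its standard error (SE).

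**Figure D1:**
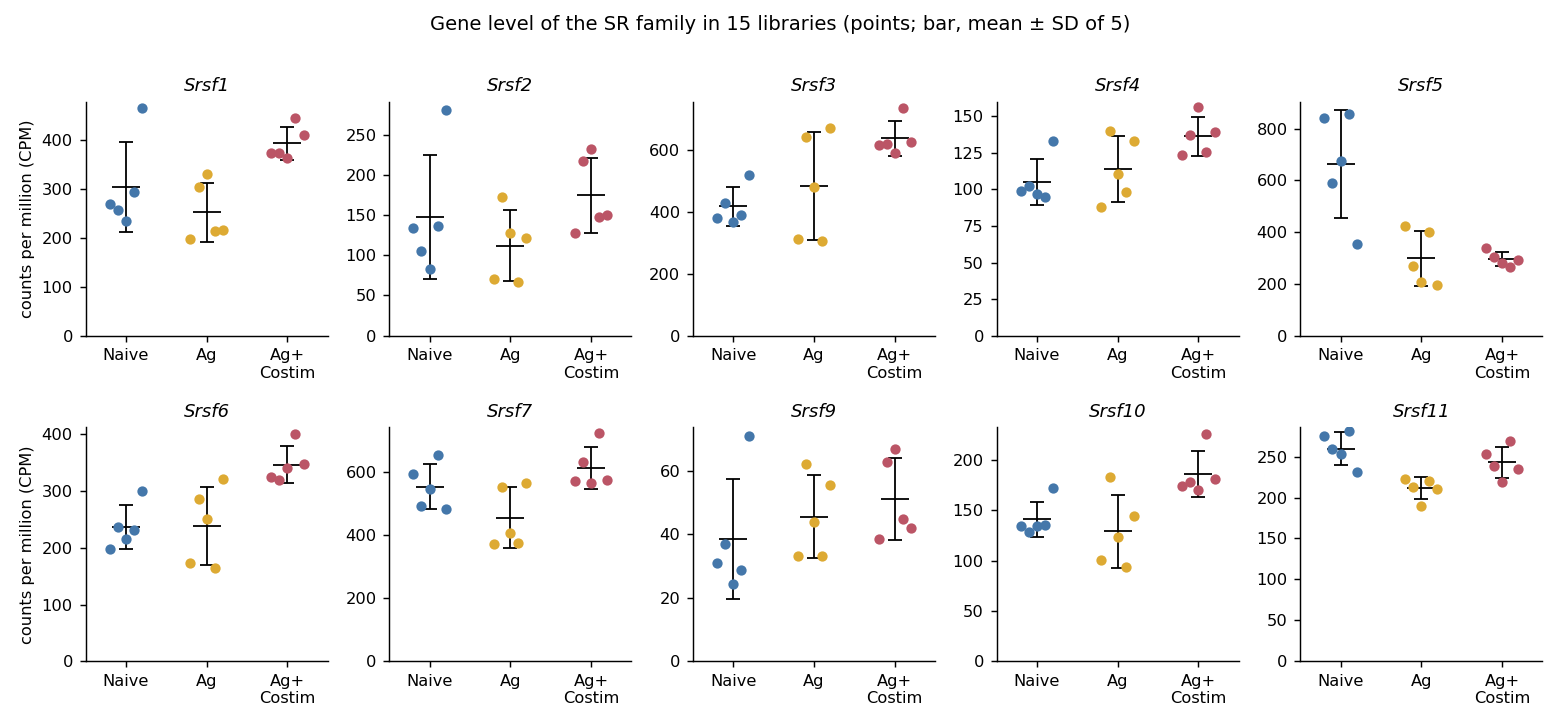
Gene level of each SR gene in CPM (vertical axis, from 0) in the 5 Naive, 5 Ag and 5 Ag+Costim libraries; points are libraries, the black bar is the mean and the whisker 1 SD. Srsf5 lies highest in Naive, Srsf3 and Srsf6 lie highest in Ag+Costim without overlap with Naive, and the Ag points spread over both ranges.

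Srsf3, chr17:29032628-29043373, encodes the smallest SR protein, an adaptor for mRNA export. Its gene level was 381, 428, 368, 387 and 519 CPM in Naive and 615, 619, 587, 733 and 625 CPM in Ag+Costim. Every Ag+Costim library lay above every Naive library, with a log2 fold change of 0.76 ± 0.25 (SE, FDR = 0.0284). In Ag, levels of 311, 641, 480.1, 306 and 670.1 CPM fell into a lower pair, Ag 1 and Ag 4, below all Naive libraries, and a higher pair, Ag 2 and Ag 5, within or above most of Ag+Costim.

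Srsf6, chr2:162931528-162937121, belongs with Srsf4 and Srsf5 to the SR proteins that carry a pair of RNA recognition motifs. It was at 197, 237, 215, 231 and 299.9 CPM in Naive and at 325, 319, 340.3, 400.3 and 347 CPM in Ag+Costim. The groups did not overlap, and the log2 fold change was 0.70 ± 0.22 (SE, FDR = 0.0248). Ag libraries ranged from 165 to 320.3 CPM, so that Ag 5 alone reached the Ag+Costim range.

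Srsf4, chr4:131873617-131901706, was at 98.7, 102, 96.7, 94.8 and 133 CPM in Naive and at 123, 137, 157, 125 and 139 CPM in Ag+Costim, a log2 fold change of 0.52 ± 0.18 (SE, FDR = 0.0325). Only Naive 5 lay within the Ag+Costim range, and the call was lost without any 1 of Naive 1 to 4 or of Ag+Costim 2, 3 and 5. Srsf10, chr4:135855747-135869908, whose protein acts as a splicing repressor when it loses its phosphates, was at 134, 129, 134, 135 and 172 CPM in Naive and at 174, 178, 169.8, 225 and 181 CPM in Ag+Costim (log2 fold change 0.55 ± 0.20, SE, FDR = 0.0421). Naive 5 again reached the lowest Ag+Costim library. The call for Srsf10 was lost when any 1 of the 5 Ag+Costim libraries or of Naive 1 to 4 was left out.

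Srsf5, chr12:80945504-80950507, was the only SR gene called lower in any comparison. It was at 843, 588, 676, 858 and 354 CPM in Naive, at 423, 269, 207, 400.4 and 196 CPM in Ag and at 340.2, 303, 280.0, 266 and 291 CPM in Ag+Costim. All 5 Ag+Costim libraries lay below all Naive libraries, and 3 Ag libraries did. It fell by 1.00 ± 0.22 on the log2 scale between Naive and Ag+Costim (SE, FDR = 0.00598) and by 1.08 ± 0.22 between Naive and Ag (SE, FDR = 0.0145). Across the 15 libraries its log2 CPM had a Pearson r of -0.56 with the mean of the other 9 genes, while the other genes had r from 0.55 (Srsf11) to 0.95 (Srsf10) with the mean of their own other 9. These correlations describe libraries that share groups, depth and lanes.

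Srsf5 was the only SR gene called between Ag and Naive, where 6.71% of all genes were called, and the median log2 fold change of the 10 genes was -0.09 against 0.08 over all genes tested. Without Ag 2 its FDR was 0.0517, with only the 10 libraries compared it was 0.133, and with lane as a term it was 0.609. Srsf11 did not overlap between Ag (189 to 223 CPM) and Naive (231 to 281 CPM) and was not called (log2 fold change -0.20 ± 0.09, SE, FDR = 0.165). Between Ag+Costim and Ag no SR gene was called, and 0.0346% of all genes were (6 genes). All 10 SR genes had a log2 fold change above 0 in that comparison, beside 7316 of the 17366 genes tested. The median was 0.44 against -0.10 over all genes tested. An unadjusted p under 0.05 was reached by 5 of the 10, beside 4647 of the 17366 genes (edgeR quasi-likelihood). DESeq2 called 4 of the 10 SR genes, Srsf1, Srsf7, Srsf10 and Srsf11, beside 14.6% of all genes. The largest of these differences was Srsf1, with 0.68 ± 0.22 (SE, FDR = 0.0906): its levels were 198, 304, 330.3, 213 and 216 CPM in Ag and 374, 373, 363, 445 and 409 CPM in Ag+Costim, with no overlap. Srsf1 was not called between Ag+Costim and Naive either (log2 fold change 0.51 ± 0.22, SE, FDR = 0.0702). Its Naive levels were 269, 258, 234, 294 and 465 CPM, and without Naive 5 the log2 fold change was 0.77 with an FDR of 0.00487.

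Leaving out Naive 5 raised the number of SR genes called between Ag+Costim and Naive from 5 to 8, adding Srsf1, Srsf2 and Srsf9. Leaving out Naive 1, Naive 3 or Naive 4 left only Srsf5, and leaving out Ag+Costim 5 left Srsf5 and Srsf6. Without Naive 2, Ag+Costim 2 or Ag+Costim 3 the calls were Srsf3, Srsf5 and Srsf6. With lane as a term in the model no SR gene was called, with log2 fold changes of 0.86 for Srsf3 (FDR = 0.0786), 0.82 for Srsf6 (FDR = 0.0696) and -1.08 for Srsf5 (FDR = 0.0542). Within lane 3, which holds the Naive group with Ag+Costim 4 and 5, Srsf3, Srsf5, Srsf6 and Srsf10 were called. The share of all genes called in each of these fits is not given here, so these counts do not single out the SR genes.

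Per length of transcript, levels can be set against each other between genes. In TPM, counts divided by transcript length and scaled to a common total, summed over each gene's transcripts, Srsf5 and Srsf7 led in Naive with 518 ± 149.6 and 517 ± 63.7 (SD, n = 5), followed by Srsf3 with 221 ± 39.2, and Srsf9 was lowest with 50.8 ± 25.4. Srsf5 and Srsf7 overlapped, and so did the next pair, Srsf3 and Srsf11. In Ag+Costim the order was Srsf7 with 638 ± 88.7, Srsf3 with 358 ± 36.8 and Srsf5 with 249 ± 15.7, and these 3 did not overlap. In Ag, Srsf7 led with 443 ± 103, above Srsf3 with 249.9 ± 90.1 and Srsf5 with 224 ± 80.6, which overlapped. Srsf7, another export adaptor, was therefore at or near the top in every group. The mean of Srsf5 was below those of both export adaptors in Ag and Ag+Costim, though in Ag it overlapped Srsf3. Srsf9 was lowest in all 3 groups, overlapping Srsf4 in each.

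The split of each gene's counts between productive and unproductive transcripts was compared next. In Ag+Costim against Naive the mean unproductive share was lower in all 10 genes, by 1.16 percentage points in Srsf1 to 27.4 in Srsf3, with a median of -17.3. Over the 6026 genes with both classes tested, the median difference was -3.57 points and 85.3% of genes were lower. Srsf2, Srsf6 and Srsf11 passed the test (diffSpliceDGE in edgeR, Simes gene-level FDR under 0.05), all lower, beside 7.75% of all genes tested, 7.57% lower and 0.183% higher. Counted over all coding genes, the unproductive share of a library was 6.63% to 13.0% in Naive, against 5.13% to 10.1% in Ag and 5.13% to 6.42% in the Ag+Costim group. A further quality measure that the sequencing core headed RiP, a percent per library with no definition, was 44.4 to 62.7 in Naive, against 15.4 to 78.3 in Ag and 69.3 to 74.3 in the Ag+Costim group. Over all coding genes the unproductive share was 10.1 and 9.59% in Ag 1 and Ag 4, and 5.84, 8.15 and 5.13% in Ag 2, Ag 3 and Ag 5. Naive 5, at 6.63%, was the lowest Naive library. The RiP values were 43.8 and 55.0 in Ag 1 and Ag 4, and 72.3, 15.4 and 78.3 in Ag 2, Ag 3 and Ag 5. The part of both measures in the SR values was not tested.

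**Figure D2:**
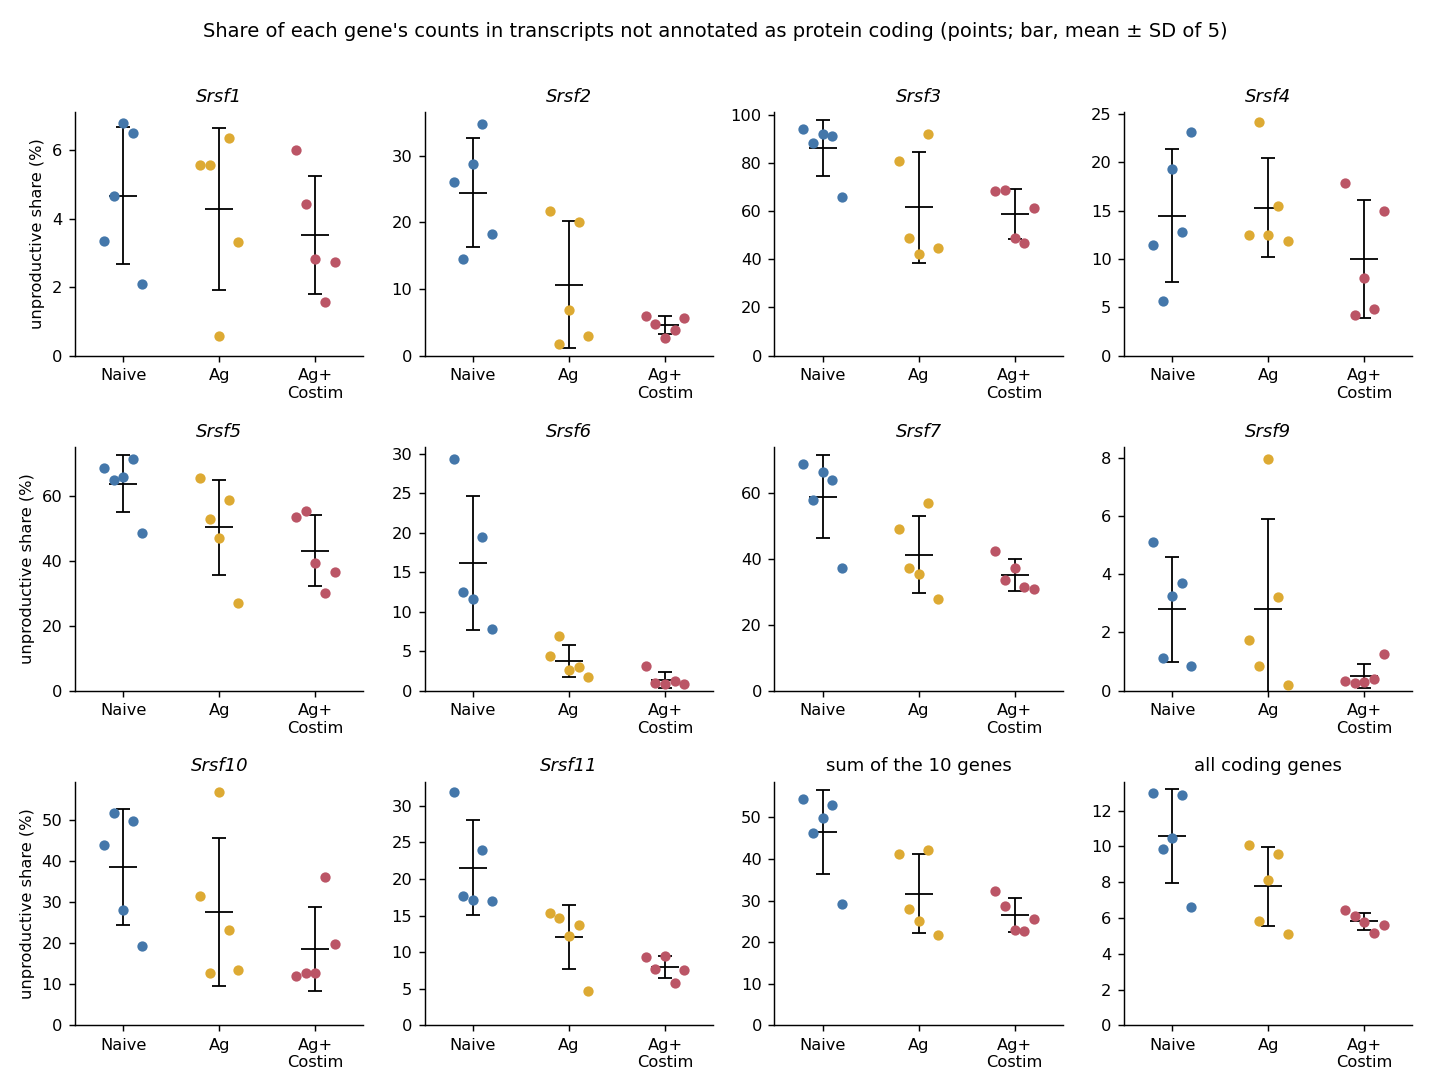
Percent of a gene's counts in unproductive transcripts (vertical axes, each from 0) for the 10 SR genes, their sum and all coding genes in the 5 libraries of each group; points are libraries, the black bar is the mean and the whisker 1 SD. Ag+Costim means lie below Naive means in every panel, and Naive 5 is the lowest or near the lowest Naive library in most panels.

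In Srsf6, unproductive transcripts held 29.4, 12.5, 11.6, 19.4 and 7.75% of counts in Naive, 4.42, 6.87, 2.62, 2.97 and 1.70% in Ag and 3.14, 0.924, 0.766, 1.18 and 0.774% in Ag+Costim. Naive did not overlap with either primed group. The difference between Ag+Costim and Naive was -14.8 points (FDR = 0.000626), and it kept its call in all 15 fits that left out 1 library, within lane 3 (FDR = 0.00594) and with lane as a term (FDR = 0.0445). Its leading unproductive transcript, Srsf6-204, keeps 1 intron and held 11.2 ± 11.1% of counts in Naive and 0.612 ± 0.157% in Ag+Costim (SD, n = 5), while the coding Srsf6-203 held 83.8 ± 8.55% and 98.6 ± 1.04%. Between Ag and Naive the unproductive share of Srsf6 differed by -12.4 points and did not pass the test (FDR = 0.145).

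In Srsf2, whose protein acts in the nucleus in exon definition, the unproductive share was 26.1, 14.5, 28.7, 34.8 and 18.2% in Naive and 5.88, 4.77, 2.62, 3.90 and 5.6% in Ag+Costim. The groups did not overlap, and the difference was -19.9 points (FDR = 0.0182). The call was lost without Naive 1, Naive 4 or any 1 of Ag+Costim 3 to 5. Ag libraries split, with Ag 1 and Ag 4 at 21.7 and 20.1% and Ag 2, Ag 3 and Ag 5 at 1.70, 6.92 and 2.91%. Ag 1 and Ag 4 were also the highest Ag libraries in this share over all coding genes, as given above. Srsf2-203, which keeps 1 intron, went from 19.1 ± 10.3% of counts in Naive to 3.68 ± 1.31% in Ag+Costim. Srsf2-202, an NMD transcript whose stop codon is the same as in the Srsf2-204 stretch above, was the only 1 of 61 SR transcripts tested with a transcript-level usage FDR under 0.05 in any comparison (0.213 ± 0.143% in Ag+Costim, 4.89 ± 5.23% in Naive, FDR = 0.0482), beside 0.81% of all 25932 transcripts tested. No SR transcript reached it between Ag and Naive or between Ag+Costim and Ag, beside 0.49% and 0.555%. Its Naive shares were 2.26, 0.312, 4.51, 3.53 and 13.8%, so that Naive 5 held the most. Within lane 3 the unproductive share of Srsf2 was not called (FDR = 0.128). Mettl23, which overlaps all of Srsf2 on the opposite strand, had a mean of 1986 counts per library. Unproductive Srsf2 had 185 to 775 counts per library in Naive and 91 to 133 in Ag+Costim. Reads of the 2 genes cannot be told apart without strand, and the part of Mettl23 in these shares was not tested.

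In Srsf11, chr3:158010473-158036639, a larger relative of the core SR proteins, the unproductive share was 31.8, 17.6, 17.2, 24.0 and 16.9% in Naive, 15.4, 14.6, 12.2, 13.7 and 4.64% in Ag and 9.41, 7.65, 9.53, 5.77 and 7.58% in Ag+Costim. Naive overlapped with neither primed group, and the difference between Ag+Costim and Naive was -13.5 points (FDR = 0.0193). Intron-retaining transcripts made up most of it, with 19.8 ± 6.96% in Naive and 7.21 ± 1.33% in Ag+Costim. It was not called within lane 3 (FDR = 0.0645), or without Naive 1, Naive 4 or any 1 of Ag+Costim 2 to 5. The split among its coding transcripts was not steady between libraries of 1 group: Srsf11-202 held from 3.15% to 63.6% of the gene's counts in Naive. Shares of single transcripts from reads of 50 bases are the authors' estimates, and sums over a class rest on them.

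Srsf3 and Srsf7 had the largest shares of NMD transcripts in the family and the largest differences, and neither passed the test. In Srsf3 the unproductive share was 93.9, 88.4, 92.0, 91.2 and 65.6% in Naive, 80.8, 48.6, 42.2, 91.8 and 44.6% in Ag and 68.4, 68.7, 48.7, 46.8 and 61.4% in Ag+Costim. The difference between Ag+Costim and Naive was -27.4 points (FDR = 0.183), and without Naive 5 it was -32.6 points and called (FDR = 0.0122). The poison-exon transcript Srsf3-201 held 49.4 ± 6.59% in Naive, against 41.1 ± 11.6% in Ag and 41.9 ± 7.31% in the Ag+Costim group, and the only coding transcript, Srsf3-202, held 13.8 ± 11.7%, 38.4 ± 23.0% and 41.2 ± 10.5%. Retained introns of Srsf3 held 36.8 ± 8.47% in Naive and 16.9 ± 6.48% in Ag+Costim, so the wider gap was in intron-retaining transcripts and not in the poison exon.

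In Srsf7, chr17:80200080-80207307, the unproductive share was 68.9, 57.9, 66.4, 64.1 and 37.3% in Naive, 48.9, 37.2, 35.3, 57.0 and 27.8% in Ag and 42.4, 33.6, 37.1, 31.3 and 30.9% in Ag+Costim. Only Naive 5 lay within the Ag+Costim range, and the difference was -23.9 points (FDR = 0.194). The poison-exon transcript Srsf7-203 held 31.1 ± 13.1% in Naive and 18.1 ± 2.75% in Ag+Costim. Srsf5 and Srsf10 had differences of -20.8 and -19.9 points with FDRs of 0.244 and 0.308. In Srsf5 the intron-retaining Srsf5-212 alone held 52.7 ± 7.42% of counts in Naive, against 40.0 ± 10.9% in Ag and 39.2 ± 10.3% in the Ag+Costim group, more than any of its 5 coding transcripts, of which the leading Srsf5-203 held 13.2 ± 1.32% in Naive and 15.8 ± 6.96% in Ag+Costim. In Srsf10 the processed transcript Srsf10-207 held 18.6 ± 8.05% in Naive and 6.52 ± 2.09% in Ag+Costim, against 40.4 ± 4.07% and 47.0 ± 2.05% for the coding Srsf10-204.

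**Figure D3:**
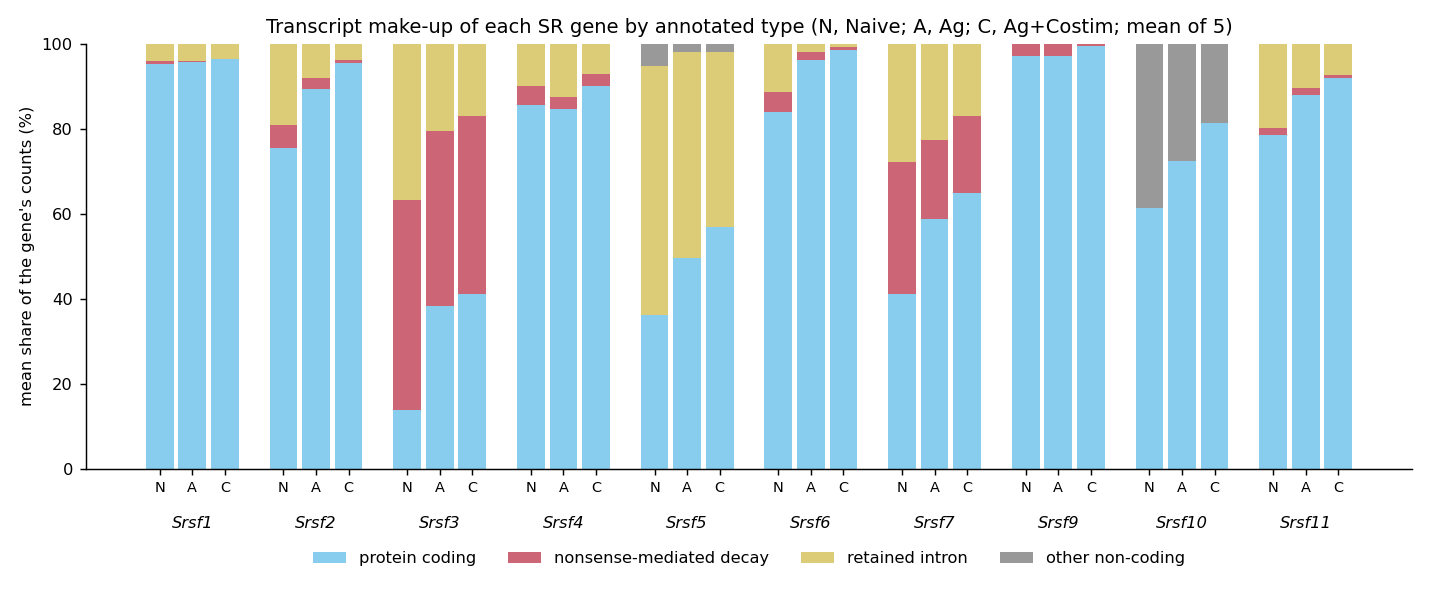
Mean percent of each SR gene's counts (vertical axis) in transcripts annotated as protein coding, as NMD targets, as retaining an intron or as another non-coding type, in Naive (N), Ag (A) and Ag+Costim (C), 5 libraries each. Srsf3 and Srsf7 carry most of the NMD share, Srsf5 has the largest retained-intron share of the 10 genes in each group, and Srsf1, Srsf4, Srsf6 and Srsf9 are mainly protein coding in all groups.

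Srsf1, Srsf4 and Srsf9 were mainly productive throughout, with unproductive means of at most 4.67, 15.3 and 2.80% in any group. Srsf1-205, the leading coding transcript of Srsf1, held 65.4 ± 12.7% in Naive and 80.0 ± 12.3% in Ag+Costim, and Srsf1-203, its leading unproductive transcript, 3.60 ± 1.73% and 3.36 ± 1.69%. Srsf4-202 held 85.5 ± 6.86% and 90.0 ± 6.13%, and the intron-retaining Srsf4-201 9.97 ± 7.76% and 7.03 ± 6.47%. Srsf9-201 held 97.2 ± 1.80% and 99.5 ± 0.421%, and the NMD transcript Srsf9-205 2.80 ± 1.80% and 0.507 ± 0.421%. These differences did not pass the test, and unproductive Srsf9 rested on few counts per library, 5 to 23 in Naive, against 2 to 17 in Ag and 2 to 8 in the Ag+Costim group.

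Between Ag and Naive the unproductive share was lower in 9 of 10 SR genes and in 66.6% of all 6026 genes tested. The median was -11.7 points against -1.05 over all genes tested, and no SR gene was called, beside 0.0332% of all genes (2 genes). An unadjusted p under 0.05 was reached by 3 of the 10, beside 344 of the 6026 genes. Between Ag+Costim and Ag the share was lower in all 10 and in 82.1% of all genes tested, with a median of -4.71 points against -2.12. No SR gene was called there, beside 0.398% of all genes. In that comparison 2 of the 10 had an unadjusted p under 0.05, and the count over all genes is not given here. No SR gene passed the transcript usage test, which also asks for a change of at least 10 percentage points in a transcript, in any comparison, beside 0.64%, 0.947% and 1.23% of 7501 genes for Ag against Naive, Ag+Costim against Ag and Ag+Costim against Naive. An unadjusted p under 0.05 was reached by 3, 1 and 5 of the 10 genes, beside 469, 709 and 1178 of the 7501 genes. Only edgeR was run for these tests of shares.

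The level of each class was tested as well, and it is relative to the scaling of the libraries. Between Naive and Ag+Costim, the unproductive class fell in Srsf2, Srsf5, Srsf6 and Srsf11, and the productive class rose in Srsf3, Srsf4, Srsf6, Srsf7, Srsf10 and Srsf11. Among all genes, 29.3% of 6306 unproductive classes were called, 27.2% lower and 2.05% higher, and 35.5% of 11656 productive classes, 21.6% higher and 14.0% lower, so the 4 of 10 lower unproductive classes stand near that background. With library totals in place of TMM factors, 1774 productive classes were called higher and 2598 lower over all genes, in place of 2515 and 1627. Between Ag and Naive the same change moved the split from 270 higher and 240 lower to 235 and 321 for productive classes, and from 21 and 48 to 14 and 55 for unproductive ones. It moved the median log2 fold change of Ag+Costim over Naive by -0.31 for productive classes, -0.33 for unproductive classes and -0.15 for genes. With those totals Srsf3, Srsf4, Srsf6, Srsf7 and Srsf10 were called higher, productive Srsf11 was not called, and productive Srsf5 and unproductive Srsf7 were called lower. The median log2 fold change of the SR unproductive classes was -0.80 against -0.91 over all unproductive classes tested, and that of the productive classes 0.76 against 0.17. The calls of unproductive Srsf2, Srsf5, Srsf6 and Srsf11 were kept in all 15 fits that left out 1 library, and each productive call was lost without Naive 1 or Naive 4. With lane as a term all 4 unproductive calls (FDR 0.0636 to 0.0737) and all 6 productive calls (FDR 0.075 to 0.138) were lost.

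**Figure D4:**
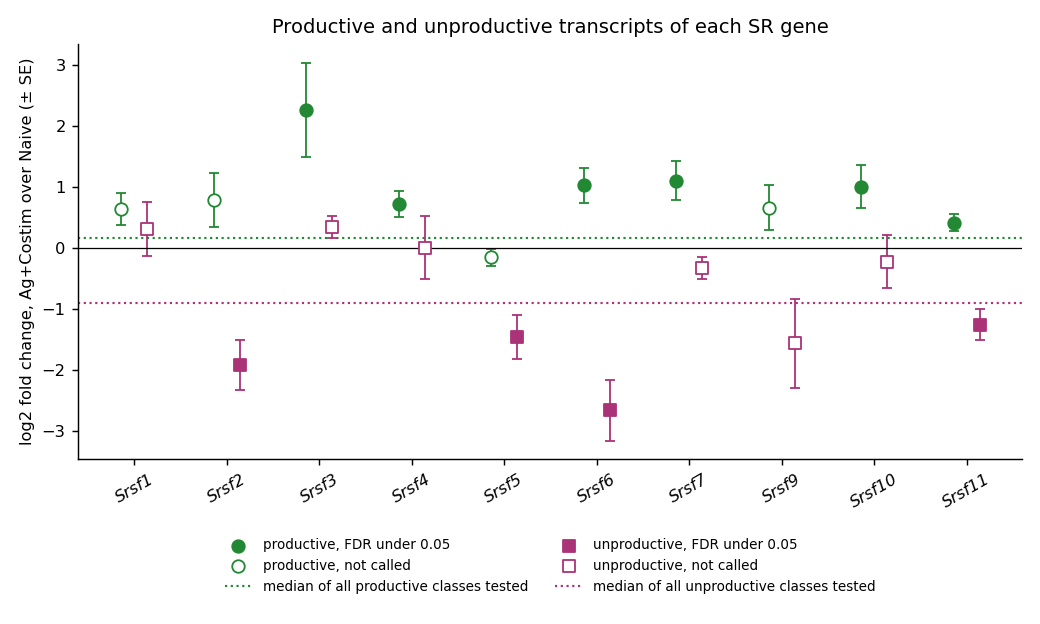
Log2 fold change of Ag+Costim over Naive (vertical axis, with SE) for the productive (circles) and unproductive (squares) transcripts of each SR gene; filled symbols passed an FDR of 0.05, and dotted lines are the medians of all classes tested. Productive Srsf3 is highest at 2.27 and unproductive Srsf6 lowest at -2.66, and in Srsf5 the productive class lies near 0 while the unproductive class is lower.

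Productive Srsf3 was at 23.2, 49.5, 29.4, 34.0 and 178 CPM in Naive, at 59.5, 329, 278, 25.0 and 372 CPM in Ag and at 194, 194, 301, 389.7 and 242 CPM in Ag+Costim. Every Ag+Costim library lay above every Naive library, with a log2 fold change of 2.27 ± 0.77 (SE, FDR = 0.0372), and the value without Naive 5 was 3.28. The call was lost when any 1 of Naive 1 to 4 or of the Ag+Costim libraries was left out, and within lane 3 (2.60, FDR = 0.057). The unproductive class of Srsf3 was at 358, 378, 338, 353 and 341 CPM in Naive and at 420.3, 425, 286, 343 and 384 CPM in Ag+Costim, with overlap and a log2 fold change of 0.34 ± 0.18 (SE, FDR = 0.138).

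Productive Srsf7 was at 185, 207, 184, 234 and 303 CPM in Naive and at 329.7, 418, 356, 497 and 398 CPM in Ag+Costim, without overlap, and rose by a log2 fold change of 1.11 ± 0.32 (SE, FDR = 0.0221). The gene level of Srsf7 had not passed the test (log2 fold change 0.30 ± 0.17, SE, FDR = 0.151), with 593, 492, 547, 653 and 483 CPM in Naive and 572, 630.3, 565, 723 and 575 CPM in Ag+Costim. Its unproductive class had a log2 fold change of -0.33 ± 0.18 (SE, FDR = 0.158). In Srsf11, too, a gene level that did not pass (0.06 ± 0.09, SE, FDR = 0.599) held a productive class that rose by 0.41 ± 0.14 (SE, FDR = 0.0376) and an unproductive class that fell by 1.26 ± 0.26 (SE, FDR = 0.00694). Productive Srsf11 was not called within lane 3 (0.55, FDR = 0.0501) or with library totals in place of TMM factors, where its log2 fold change was 0.10 (FDR = 0.377).

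Srsf5 showed the reverse split. Its unproductive class was at 578, 382, 446, 612 and 172 CPM in Naive, at 278, 143, 97.4, 236 and 53.3 CPM in Ag and at 182, 168, 111, 80.3 and 107 CPM in Ag+Costim, and it fell by 1.46 ± 0.36 on the log2 scale between Naive and Ag+Costim (SE, FDR = 0.0135). Its productive class was at 265, 206, 229.7, 246 and 182 CPM in Naive and at 158, 135, 169, 185 and 184 CPM in Ag+Costim, with a log2 fold change of -0.16 ± 0.14 (SE, FDR = 0.399). Most of the lower gene level of Srsf5 in Ag+Costim lay in transcripts that are not protein coding.

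Unproductive Srsf6 was at 57.9, 29.6, 24.9, 44.9 and 23.2 CPM in Naive and at 10.2, 2.95, 2.61, 4.73 and 2.69 CPM in Ag+Costim, a fall of 2.66 ± 0.50 on the log2 scale (SE, FDR = 0.00535), while the productive class rose by 1.03 ± 0.29 (SE, FDR = 0.0203). Unproductive Srsf2 was at 34.8, 15.3, 23.9, 47.4 and 51.0 CPM in Naive, at 15.2, 2.92, 8.84, 13.4 and 3.55 CPM in Ag and at 7.48, 10.3, 6.08, 5.76 and 8.39 CPM in Ag+Costim. It fell by 1.92 ± 0.41 between Naive and Ag+Costim (SE, FDR = 0.00836) and by 1.89 ± 0.41 between Naive and Ag (SE, FDR = 0.0299). The second call was lost without Ag 2, Ag 5, Naive 1, Naive 3 or Naive 4, with only the 10 libraries compared (FDR = 0.201) and with lane as a term (FDR = 0.657). Reads of Mettl23 cannot be told apart from those of Srsf2 here either. Unproductive Srsf2 was the only SR unproductive class called between Ag and Naive, where 1.09% of all unproductive classes were, and no SR productive class was called there, beside 4.38%. Between Ag+Costim and Ag no SR class of either kind was called, beside 0.0159% of unproductive and 0.0172% of productive classes. In that comparison 2 unproductive and 3 productive classes of the 10 had an unadjusted p under 0.05, and between Ag and Naive 2 productive classes did. The counts over all classes at that p are not given here. DESeq2 called no SR class between Ag+Costim and Ag, beside 9.67% of unproductive and 6.79% of productive classes. Between Ag and Naive it called productive Srsf3 and Srsf5, where it called 14.3% of all productive classes, and unproductive Srsf2, Srsf5, Srsf6, Srsf7 and Srsf11, where it called 5.84% of all unproductive classes.

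**Figure D5:**
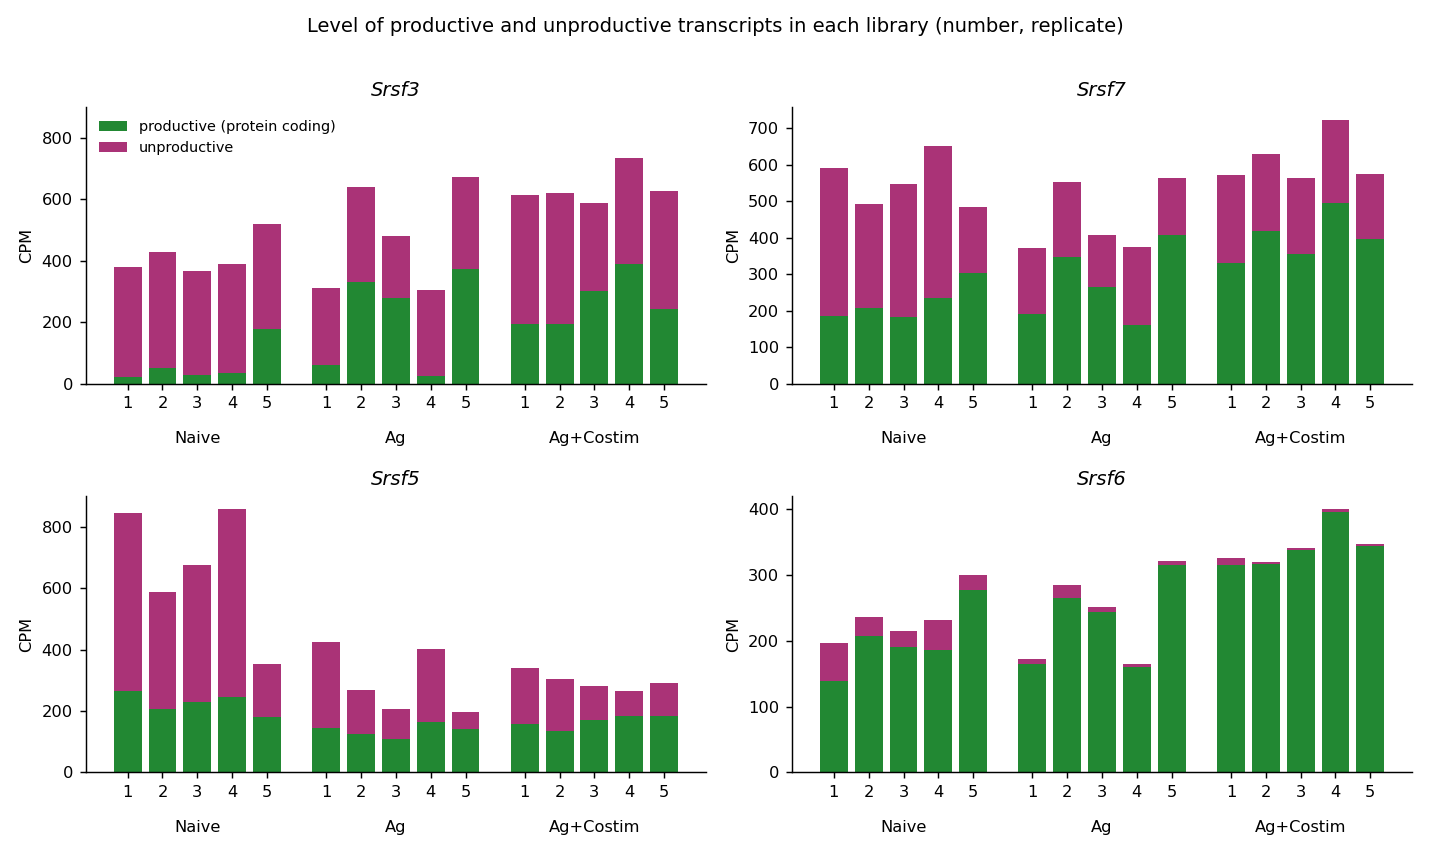
Level of productive (green) and unproductive (purple) transcripts of Srsf3, Srsf7, Srsf5 and Srsf6 in each library, stacked to the gene level in CPM (vertical axes, from 0), with replicates 1 to 5 of each group along the horizontal axis. The productive part of Srsf3 is small in Naive 1 to 4, Ag 1 and Ag 4, and the unproductive part of Srsf5 is large in Naive 1 to 4.

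Summed over the 10 genes, the family took 2866 ± 218 CPM in Naive, against 2338 ± 381 in Ag and 3075 ± 177 in the Ag+Costim group (SD, n = 5). The productive part was 1350.0, 1415, 1319, 1456 and 2127 CPM in Naive, 1169, 2034, 1699.8, 1142 and 2064 in Ag and 1990.5, 2196, 2299.6, 2609 and 2229.8 in Ag+Costim. The unproductive share of the sum was 54.3, 46.3, 49.9, 53.0 and 29.3% in Naive, 41.3, 27.9, 25.2, 42.1 and 21.7% in Ag and 32.4, 28.7, 22.8, 22.8 and 25.6% in Ag+Costim. Ag 1 and Ag 4 lay between Naive 5 and Naive 2 in this share, Ag 2 and Ag 3 lay within the Ag+Costim range, and Ag 5 lay below it. Over all coding genes, too, Ag 1 and Ag 4 had the highest unproductive shares of the Ag libraries, and Naive 5 the lowest of the Naive libraries.

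The counts for the other genes of the pathway stand beside the shares of all genes given above, 21% called higher and 23.6% lower between Ag+Costim and Naive and 6.71% called between Ag and Naive. Of 12 kinases and phosphatases of SR proteins, 11 were tested, and 3 rose and 6 fell between Naive and Ag+Costim, with a median log2 fold change of -0.64. The 4 with the lowest FDR were the nuclear kinases Clk1 (-1.83 ± 0.41, SE, FDR = 0.0073) and Clk4 (-1.07 ± 0.27, SE, FDR = 0.0118), the spliceosomal kinase Prpf4b (-0.89 ± 0.21, SE, FDR = 0.00787) and the phosphatase catalytic subunit Ppp1ca (0.86 ± 0.22, SE, FDR = 0.0112). Those that fell were all kinases, Srpk1, Srpk2 and Dyrk1a being the others, and those that rose were the 3 catalytic subunits of protein phosphatase 1. Prpf4b was the only 1 called between Ag and Naive (-0.79 ± 0.21, SE, FDR = 0.0358).

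Of 24 SR-related splicing genes, 3 rose and 6 fell between Naive and Ag+Costim, with a median of -0.13. The lowest FDRs were those of Tra2b, a splicing activator (1.04 ± 0.15, SE, FDR = 0.00162), U2af1, which binds the 3' splice site (0.85 ± 0.18, SE, FDR = 0.00605), Luc7l3 (-0.79 ± 0.20, SE, FDR = 0.0119) and Son (-0.83 ± 0.22, SE, FDR = 0.0133). Between Ag and Naive 3 of the 24 fell, Luc7l, Pnn and Ddx46. Of 6 transport and export partners 1 rose, the export cofactor Nxt1 (0.79 ± 0.29, SE, FDR = 0.0416), and between Ag and Naive 2 fell, Thoc1 and Nxf1.

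Of 14 genes of the NMD machinery and exon junction complex, 3 rose and 5 fell between Naive and Ag+Costim, with a median of -0.23. Those that rose were the junction complex core Eif4a3 (0.85 ± 0.27, SE, FDR = 0.0228), Magoh and Rbm8a. Those that fell with the lowest FDRs were Casc3 (-0.50 ± 0.12, SE, FDR = 0.0105), the kinase Smg1 (-1.39 ± 0.36, SE, FDR = 0.012), Smg9 (-0.58 ± 0.16, SE, FDR = 0.0137) and Smg6 (-0.72 ± 0.21, SE, FDR = 0.0181), beside Upf2. Between Ag and Naive, Casc3 (-0.70 ± 0.13, SE, FDR = 0.0106) and Smg5 (-0.84 ± 0.20, SE, FDR = 0.0256) fell, and between Ag+Costim and Ag none of the genes of the 4 lists was called by edgeR.

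Over the 15 libraries and 7772 other genes with a mean of at least 20 CPM, the log2 CPM most like the mean of the 10 SR genes was that of Dis3, an exosome RNase, with a Pearson r of 0.96. It was followed by Lonp1, a mitochondrial protease, with 0.96, Slc7a5, an amino acid transporter, with 0.96, Trmt6, a tRNA methyltransferase subunit, with 0.96, and Cdt1, a replication licensing factor, with 0.96. Dis3 was at 44.8 ± 13.4 CPM in Naive, against 37.4 ± 15 in Ag and 66.7 ± 6.62 in the Ag+Costim group (SD, n = 5). These values of r are descriptions over libraries that share groups, lanes and depth.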

How the data were processed

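The series measured RNA in 15 libraries (SMART-Seq v4, Nextera XT, reads of 50 bases per the labels, not stranded), 5 per group. Per the submitters' processing notes, the authors used HISAT2 2.1.0, SAMtools 1.9 and StringTie 2.1.0 on mm10, with R 4.0.5 and DESeq2 1.30.1. The annotation release is not given in the sources used here. The authors deposited estimated counts per gene and per transcript, written as whole numbers. The sequencing core's deposited lane sheet gave reads and percent values per library. The deposited FPKM table was not used, because a pair of its columns was identical.

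Identifiers with versions were matched to GENCODE M21 (GRCm38), which gave transcript types and coordinates. Unmatched entries held 0.0818% of gene counts. CPM are counts scaled to a common total of matched counts, TPM were computed from transcript counts and annotated lengths, and fold changes come from the fit with TMM factors, with SEs derived from the F statistic. Genes, and the summed productive and unproductive counts of each gene, were tested with the two-sided edgeR 4.0.16 quasi-likelihood test in R 4.3.3 after filterByExpr, with all 15 libraries sharing 1 estimate of spread, and Benjamini-Hochberg adjustment over all features tested. Shares were tested with diffSpliceDGE in edgeR. Its gene-level FDR was taken from the Simes test. On simulated data for Ag+Costim against Naive with 5910 genes, 4.69% of 5710 unchanged genes had p under 0.05 with it and 8.86% with the gene-level F test, and at an FDR of 0.05 Simes called 223 genes, 31 of them unchanged, against 247 and 48. The simulation gave every gene the same spread, set below that of the data, and held no lane differences. In the gene counts of the data the common biological coefficient of variation was 0.43. The simulated rates therefore do not show how either test behaves at the spread of these libraries. The F test is an alternative added after seeing the data. Transcript usage calls also needed a change of 10 percentage points.

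The SR genes were the 10 named members, all of them described. Other genes named were, in each pathway list and comparison, the called genes with the 4 lowest FDRs, and the 5 genes most like the mean of the SR genes among those with a mean of at least 20 CPM. Called list genes beyond these were named to complete a count, after their values were seen. Some called list genes are not reported here. Members and lists were chosen with earlier results of these data known. Alternatives were DESeq2 1.42.0, no filter on low counts, library totals, only the libraries compared, replicate number or lane in the model, 1 lane, only NMD and retained-intron types as unproductive, and leaving out libraries. No library pair within a group was a duplicate (lowest chi-square per degree of freedom 4.69).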

Additional observations from a re-analysis of the deposited data

Results flagged for a closer look

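Of 66 groups of 5 libraries checked (gene CPM and unproductive share), 11 had an extreme library standing off from the next value by more than 0.71 of the group's range (Dixon's test), where chance gives about 1 in 20. In 7 of the 11 the library was Naive 5. It was highest among Naive libraries in gene CPM of Srsf1 (465, others 234 to 294), Srsf2 (280.4, others 83.3 to 136), Srsf4 (133, others 94.8 to 102), Srsf9 (71.1, others 24.3 to 37.0) and Srsf10 (172, others 129 to 135). It was lowest in the unproductive share of Srsf3 (65.6%, others 88.4 to 93.9%) and Srsf5 (48.7%, others 64.9 to 71.4%). Ag+Costim 4 was highest in gene CPM of Srsf3 (733, others 587 to 625) and Srsf10 (225, others 169.8 to 181). Ag+Costim 1 was highest in the unproductive share of Srsf6 (3.14%, others 0.766 to 1.18%), and Ag+Costim 5 in that of Srsf9 (1.25%, others 0.247 to 0.407%). Naive 5 was also the lowest Naive library in the unproductive share over all coding genes. No cause was tested.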

How the results depend on the processing

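No SR result changed direction past its threshold under any alternative, and 2604 of the single-member values stayed on their side of it, 114 lost and 80 gained a call. Most of the 2604 were called neither in the main fit nor in the alternative, and all 114 losses were among results called in the main fit. Of those results, only the unproductive share of Srsf6 between Ag+Costim and Naive kept its call under every alternative. For genes called between Ag and Naive (1), DESeq2 called 2, and no filter, only the 10 libraries compared and the lane term each called 0. Between Ag+Costim and Ag (0), DESeq2 called 4, and 1 was called without Ag 3 and Naive 5. Between Ag+Costim and Naive (5), no filter gave 2, the lane term 0, and leaving out Ag 3 and Naive 5 gave 8. Usage calls without Ag 3 and Naive 5 were 1 between Ag and Naive and 3 between Ag+Costim and Naive, where library totals, the 10 libraries, the lane term and lane 3 alone each gave 1. Share calls with the F test were 2, 1 and 7 for Ag against Naive, Ag+Costim against Ag and Ag+Costim against Naive. In the last, the 10 libraries gave 5, the lane term and lane 3 alone 1 each, and leaving out Ag 3 and Naive 5 gave 6. Unproductive classes between Ag and Naive numbered 5 with DESeq2, 3 with library totals, 0 with the 10 libraries or the lane term and 4 without Ag 3 and Naive 5, and between Ag+Costim and Naive 0 with the lane term. For most alternatives, and for the fits below, the share of all features called in the same fit is not given here. These counts therefore do not single out the SR genes. The causes were not tested.

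Leaving out 1 library gave, in the same order of comparisons, 0 to 1, 0 to 4 and 1 to 8 genes, 0 to 2, 0 and 0 to 3 usage calls, 0, 0 and 1 to 4 share calls, and 0 to 5, 0 to 1 and 4 to 5 unproductive classes. With the replicate block, genes called were 1, 0 and 5, usage calls 0, 0 and 1, share calls 0, 0 and 4 and unproductive classes 3, 0 and 4. The numbers did not pair the libraries: 5 of 15 same-number pairs had a correlation of deviations over 0.1 (-0.32 to 0.47), against 12 of 60 other pairs, and 6 of 15 libraries correlated best with their own number. Low counts limit unproductive Srsf9.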
